A study of Mus musculus with 6 samples.

Results

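The proteasome genes described here were all genes whose only symbol in the array annotation began with Psma to Psmg and a digit, without the immunoproteasome genes Psmb8, Psmb9 and Psmb10. They numbered 46 of the 18820 genes measured, each read through its brightest feature, that is, the set of probes that measures one transcript. Psmc3ip, a meiotic recombination factor, and Psme3ip1, which encodes a partner of the activator PA28gamma, matched by symbol but are not subunits. The alpha subunit gene Psma4 was not analysed here, because its feature carries the symbol of another gene as well. Expression was compared between primary hepatocytes transduced with adenovirus encoding green fluorescent protein (Ad-GFP), the control, and with adenovirus encoding nuclear CREBH (Ad-nuclear CREBH in the design, Ad-CREBH or Ad-CREBH3 in the sample labels). Nuclear CREBH is the fragment of this liver transcription factor that is active without cleavage in the Golgi apparatus. The cells of both groups came from wildtype male C57BL/6J mice aged 8 to 10 weeks, were cultured with fetal bovine serum in 60 mm dishes, were transduced at a multiplicity of infection of 100 and were collected after 24 h. There were 3 dishes and 3 Affymetrix arrays per group, and because separate animals are not stated as their source, the p-values cover the variation among dishes alone. Both groups carry an adenovirus, and untransduced cells were not analysed here.

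Values are log2 expression from RMA, and the number of arrays limits their precision. Creb3l3, which encodes CREBH, was between 8.02 and 8.49 with Ad-GFP and between 9.97 and 10.59 with Ad-nuclear CREBH, without telling the viral transcript from that of the mouse gene. Of 9 measured hepatocyte markers, Alb was at 13.28 and 13.27, Apoa1 rose, and Fgb, Ahsg and Cps1 fell, with a summed level of 15.33 to 15.42 on the log2 scale with Ad-GFP and 15.23 to 15.38 with Ad-nuclear CREBH. Of cholangiocyte markers, Epcam rose 3.33-fold (adjusted p = 2.5e-04) and Krt19 fell 2.09-fold (adjusted p = 0.00409). None of 7 stellate and fibroblast markers passed. Col1a1 was at 7.30 and 7.51 on Ad-nuclear CREBH replicates 2 and 3 and between 4.77 and 5.25 on the other arrays (adjusted p = 0.0619). On the same replicates Col1a2 was at 5.76 and 6.02, and it was between 4.35 and 4.42 elsewhere. Col3a1, Dcn, Lrat and Pdgfrb had log2 fold changes between 0.016 and 0.16, and Acta2 was at -0.43. The part of such cells in the results was not tested. Across genes, the mean correlation of Ad-GFP replicate 1 with its group was 0.986, against 0.991 for the other arrays of that group. In bulk RNA, fewer cells of a type and less RNA per cell cannot be told apart.

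The 26S proteasome degrades proteins that carry ubiquitin. Its 20S core is a barrel of outer alpha rings and inner beta rings, in which Psmb5, Psmb6 and Psmb7 supply the proteolytic sites. The 19S regulatory particle caps the barrel, and consists of a base, with a ring of ATPases that unfold substrates, and a lid, which removes ubiquitin. Interferon-gamma and other inflammatory signals induce alternative catalytic subunits, which form the immunoproteasome, and the PA28alpha and PA28beta subunits of an activator that opens the barrel. Dedicated chaperones assemble core and base.

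In hepatocytes expressing nuclear CREBH, the PA28 genes Psme1 and Psme2 and the base chaperone gene Psmd5 fell 5.31-fold, 5.39-fold and 3.54-fold, whereas the subunits of the 26S proteasome had log2 fold changes between -1.04 and 0.68 and moved in both directions. Among all 46 genes, 5 rose and 14 fell at an adjusted p under 0.05 from limma, Benjamini-Hochberg adjusted over all genes. These shares, 10.9% risen and 30.4% fallen, stand beside 19.2% risen and 18.2% fallen among all genes tested, and the 41.3% that passed in either direction beside 37.4%. Among the 10005 genes above the median level, where most proteasome genes lie, 29.6% rose and 30.3% fell. A gene entered this list if the higher of its 2 group means exceeded the median level of all genes, 5.24. The list therefore also holds genes above that level in a single group, a rule that favours genes that changed. The median log2 fold change, Ad-nuclear CREBH minus Ad-GFP, was -0.13 for the proteasome genes, 0.039 for all genes and -0.055 for those above the median level. With dim genes left out, the median of the 44 proteasome genes that remained was -0.093. The genes compared then were only those above the median level, with a median of -0.055 instead of 0.039. The distance of the proteasome median from that of the genes tested was -0.17 in the main fit and -0.038 with dim genes left out. Centring each array on its median raised the log2 fold change of every gene by the same 0.14. With this centring 7 proteasome genes rose and 11 fell, beside 25.6% and 15.2% of all genes. The median of the proteasome genes then became 0.013 and that of all genes 0.18. Without Ad-GFP replicate 1 the count that rose was 8, with 20% of all genes risen. Without both arrays numbered 1, an alternative chosen after seeing the data, 10 rose and 18 fell, with 23.3% of all genes risen and 25.3% fallen.

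**Figure D1:**
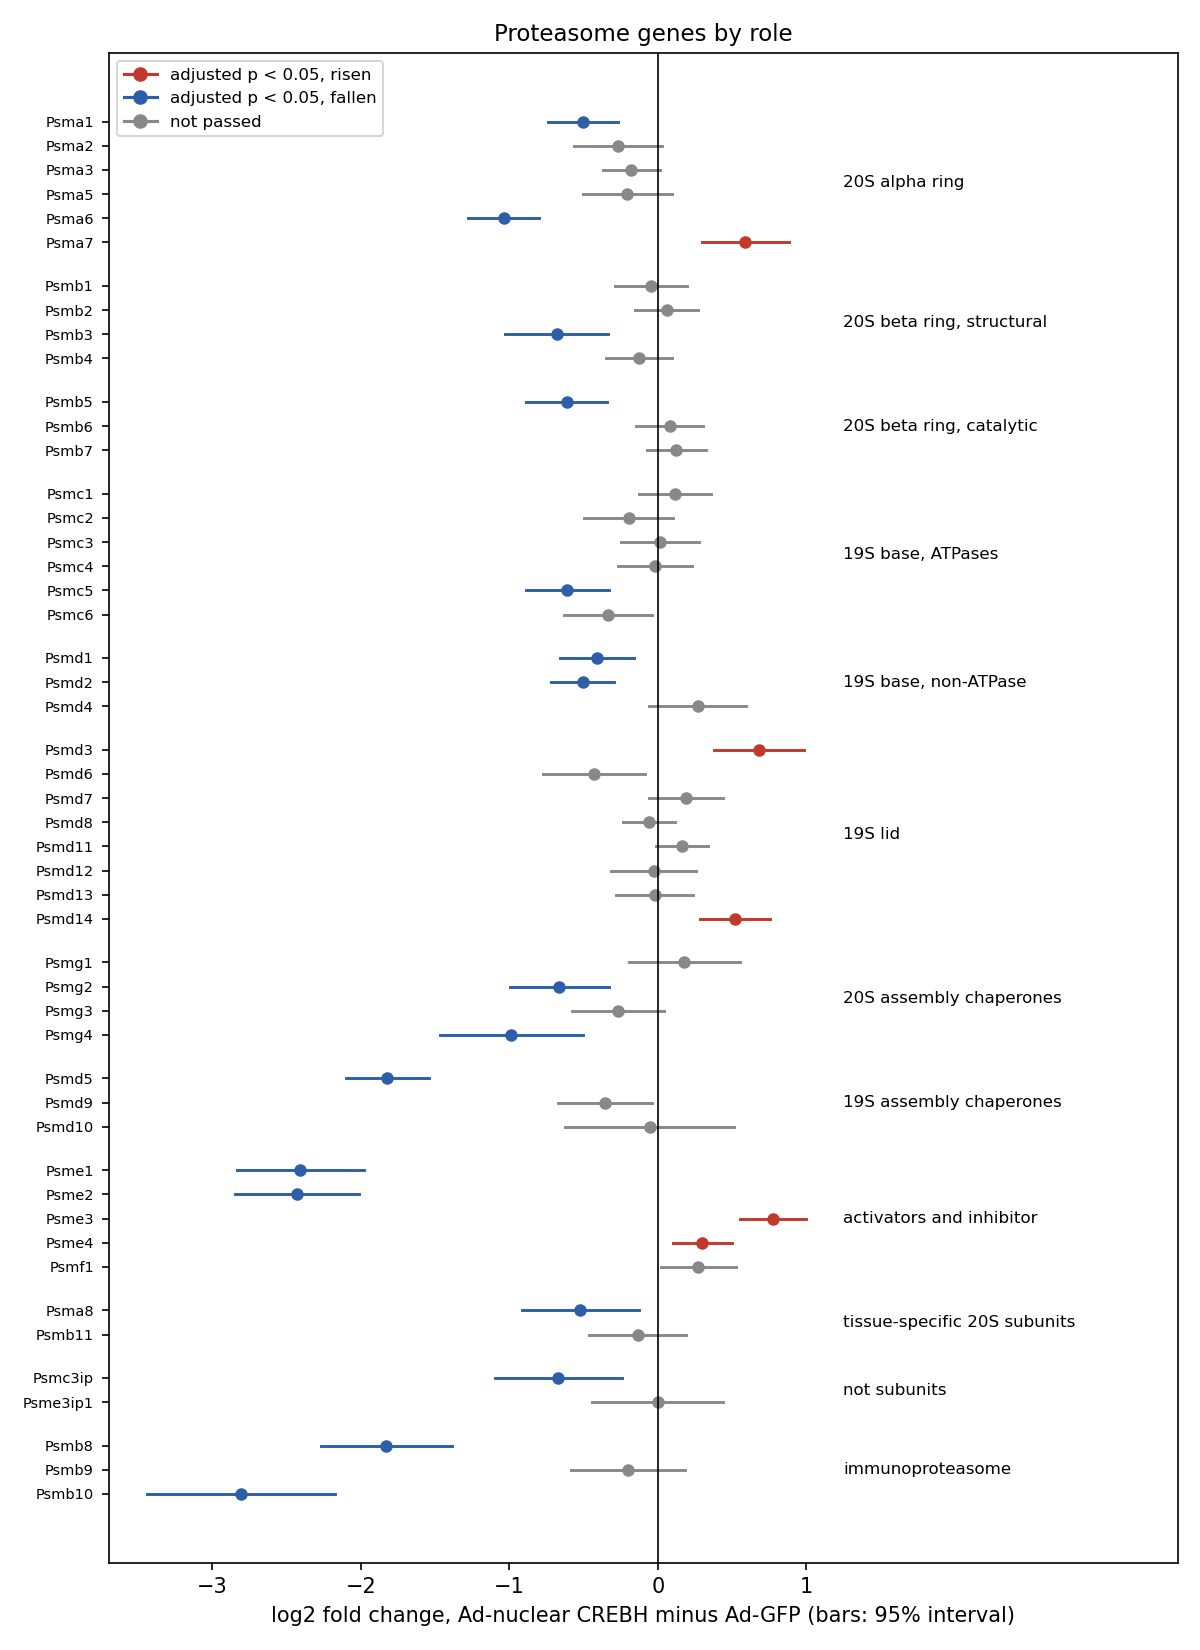
Log2 fold change (x axis, Ad-nuclear CREBH minus Ad-GFP, n = 3 dishes each) of the 46 proteasome genes and, at the bottom, of 3 immunoproteasome genes, ordered by role; points are fitted values and bars 95% intervals, red for risen, blue for fallen and grey for genes that did not pass. Psme1, Psme2 and Psmd5 lie at -2.41, -2.43 and -1.82, and the 26S subunits between -1.04 and 0.68.

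**Figure D2:**
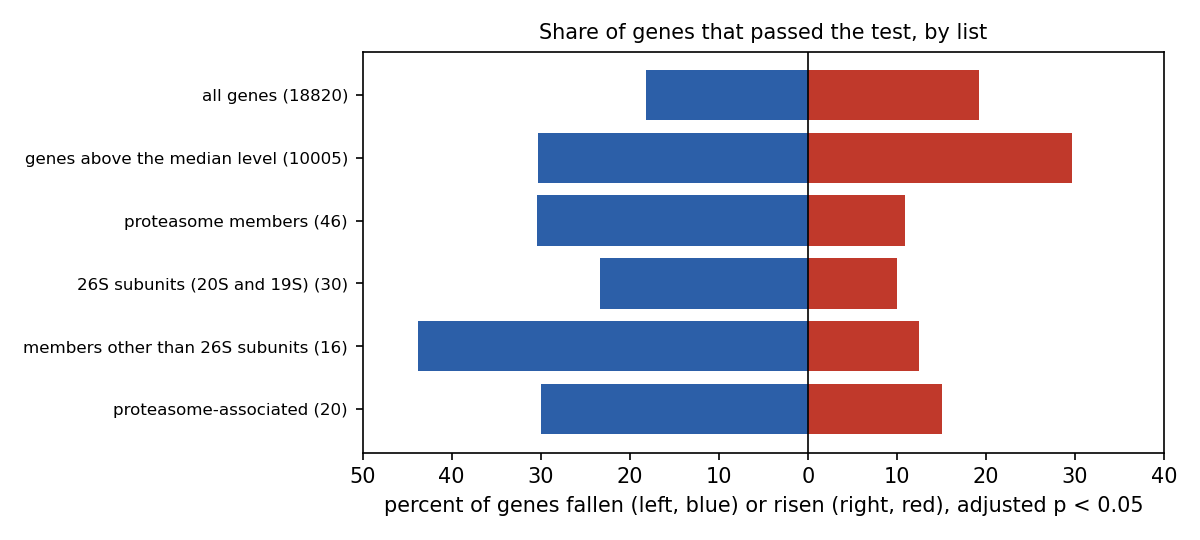
Percent of the genes of each list that fell (blue, left) or rose (red, right) with Ad-nuclear CREBH at an adjusted p under 0.05; the number of genes is in parentheses. The bars of the 30 subunits of the 26S proteasome reach 23.3% and 10.0%, and those of all genes 18.2% and 19.2%.

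Changes of 2-fold or more were few. The proteasome genes that passed the test with a change over 2-fold numbered 4, or 8.7%. This stands against 18.4% of all genes (9.43% risen and 8.96% fallen) and 32.4% of those above the median level. All 4 fell, namely Psme1, Psme2, Psmd5 and Psma6. The same 4 met the criteria of the methods (unadjusted p under 0.001, fold over 2 or under 0.5, level over 300), as did 8.01% of all genes (4.91% risen and 3.1% fallen). All 1508 genes that met these criteria were among the 10005 above the median level, so the share in that list is higher. The groups did not overlap for 28 proteasome genes, 60.9%, against 49.4% of all genes and 70.9% of those above the median level. In 21 of these the Ad-nuclear CREBH dishes lay below every Ad-GFP dish, and in 7 above, while 23.1% of all genes lay below and 26.2% above.

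Psme1 and Psme2 encode the PA28alpha and PA28beta subunits of the activator that joins the core in cells exposed to interferon. Psme1 was at 9.28, 9.96 and 9.68 with Ad-GFP and at 7.07, 7.35 and 7.27 with Ad-nuclear CREBH, a 5.31-fold fall (log2 fold change -2.41, SE 0.19, adjusted p = 4.4e-05). Psme2 was at 8.93, 9.47 and 9.29 with Ad-GFP and at 7.02, 6.78 and 6.60 with Ad-nuclear CREBH, a 5.39-fold fall (-2.43, SE 0.18, adjusted p = 4.0e-05). For both genes every Ad-nuclear CREBH dish lay below every Ad-GFP dish, and the lowest Ad-GFP dish was replicate 1. The Psme2 value is uncertain in that another feature of the array carries its symbol together with that of the near-identical copy Psme2b, and signal of the copy was not told apart.

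The start of Psme1 is shown because it holds letters that match an interferon-stimulated response element, the site at which interferon-activated factors bind (GAAA and GAAA with 2 bases between, both strands searched, here on the opposite strand, in capitals). These 30 bases run from 10 bases before the annotated start to 20 after it (RefSeq, GRCm38.p6, chr14:55578484-55578513, plus strand).
Psme1: tgcaggtttcgagctgtgcTTTCGCTTTCc
The motif was present in windows of 300 bases around the start, from 250 before to 50 after, of 5 of 38 proteasome genes with such a window in the table (Psme1, Psmb3, Psmd4, Psmd9 and Psmg4). This is 13.2%, against 3.91% of all tested genes and 3.46% of those above the median level. Psmb3 and Psmg4 fell, and Psmd4 and Psmd9 did not pass. The other interferon motif searched, the gamma-activated site (TTCNNNGAA), was found in 2 of 38, Psmd2 and Psmg1, and not in Psme1. Its share was 5.26%, against 9.06% of all tested genes and 8.3% of those above the median level. A gene with several annotated starts was counted once, if any of its windows matched. A match of letters is a description and not a site that was measured.

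The other activators went the opposite way. Psme3, which encodes PA28gamma, a nuclear relative of PA28alpha and PA28beta that interferon does not induce, was at 9.94, 10.13 and 10.18 with Ad-GFP and at 10.84, 10.84 and 10.89 with Ad-nuclear CREBH. It rose 1.71-fold (log2 fold change 0.78, SE 0.097, adjusted p = 4.3e-04), the largest rise of any proteasome gene in this fit. Psme4, which encodes the activator PA200, was at 10.20, 10.21 and 10.20 with Ad-GFP and at 10.42, 10.52 and 10.56 with Ad-nuclear CREBH, a 1.23-fold rise (0.30, SE 0.086, adjusted p = 0.026). The call of Psme4 was lost when any of Ad-GFP replicates 2 or 3 or Ad-nuclear CREBH replicates 2 or 3 was left out and after quantile normalization, with log2 fold changes of 0.27 to 0.34 over the arrays left out and adjusted p up to 0.117 over all alternatives. Psmf1, the inhibitor PI31, was at 9.10 with Ad-GFP and 9.37 with Ad-nuclear CREBH (adjusted p = 0.0901) with groups that did not overlap. It passed as risen in 4 of 17 alternatives, namely array weights, each array centred on its median, Ad-GFP replicate 1 left out and both arrays numbered 1 left out. Within each array, the log2 value of Psme1 minus that of Psme3 differed by -3.19 between the groups (Ad-nuclear CREBH minus Ad-GFP), and that of Psme2 minus Psme3 by -3.21. Each of these had p = 0.1 by an exact two-sided permutation test, the smallest that 3 dishes against 3 allow, with 0.117 after Benjamini-Hochberg adjustment over 7 pairs compared.

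**Figure D3:**
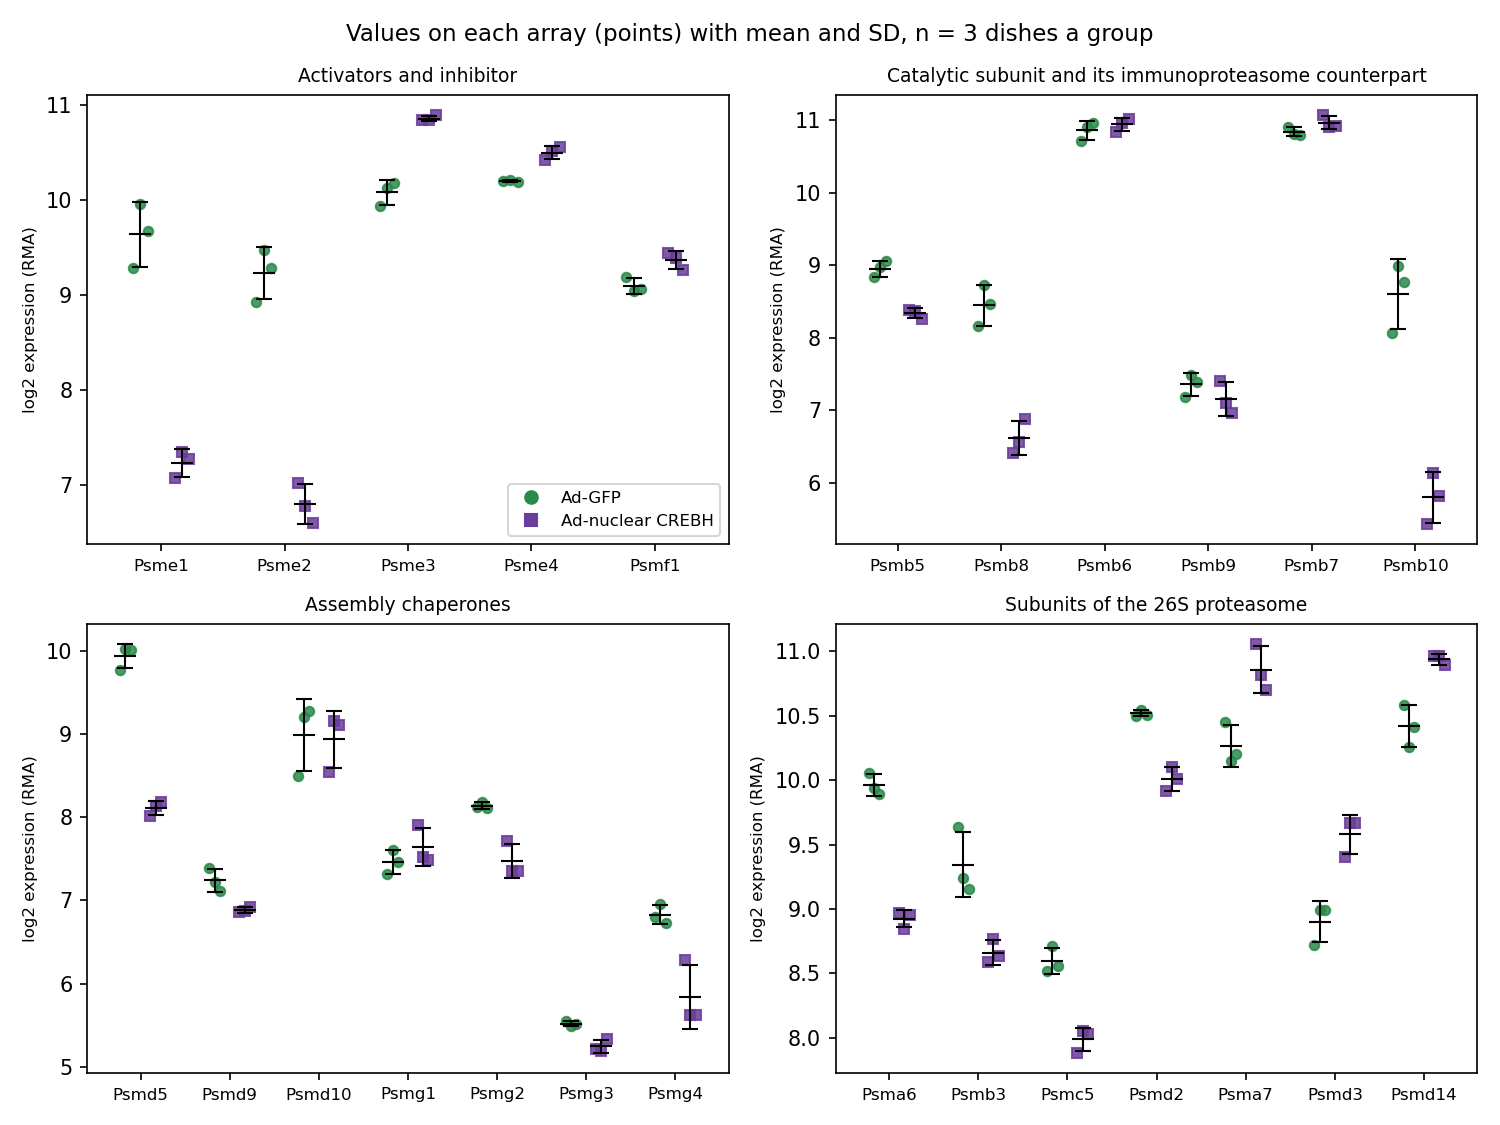
Log2 expression (y axis) on each array of Ad-GFP (green circles) and Ad-nuclear CREBH (purple squares) dishes, with mean and SD of 3 dishes, for activators and inhibitor, for the catalytic subunits each followed by its immunoproteasome counterpart, for the assembly chaperones and for 7 subunits of the 26S proteasome. Psme1 and Psme2 drop by over 2 log2 units while Psme3 rises by 0.78, and Psmb8 and Psmb10 drop while Psmb9 overlaps between the groups.

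The catalytic subunits of the constitutive core were read beside their immunoproteasome counterparts, which were not counted among the 46 genes. Psmb5, the subunit with chymotrypsin-like activity, was at 8.84, 8.98 and 9.06 with Ad-GFP and at 8.39, 8.37 and 8.26 with Ad-nuclear CREBH, a 1.53-fold fall (log2 fold change -0.61, SE 0.12, adjusted p = 0.00392) with no overlap between groups. Its counterpart Psmb8 was at 8.16, 8.73 and 8.46 with Ad-GFP and at 6.42, 6.57 and 6.88 with Ad-nuclear CREBH, and fell by 1.83 on the log2 scale (adjusted p = 1.8e-04). Both genes thus fell, and their difference within arrays, Psmb8 minus Psmb5, was -1.21 between the groups (exact permutation p = 0.1, adjusted 0.117). Psmb6, with caspase-like activity, was at 10.72, 10.91 and 10.96 with Ad-GFP and at 10.85, 10.96 and 11.02 with Ad-nuclear CREBH (log2 fold change 0.080, 95% interval -0.15 to 0.31, adjusted p = 0.584). Its counterpart Psmb9 was at 7.19, 7.49 and 7.40 with Ad-GFP and at 7.41, 7.11 and 6.96 with Ad-nuclear CREBH, and the groups overlapped for both genes (for Psmb9 -0.20, 95% interval -0.58 to 0.19, adjusted p = 0.408). Psmb7, with trypsin-like activity, was at 10.91, 10.81 and 10.80 with Ad-GFP and at 11.07, 10.91 and 10.92 with Ad-nuclear CREBH (0.12, 95% interval -0.076 to 0.32, adjusted p = 0.318). Psmb10, its counterpart, was at 8.06, 8.99 and 8.77 with Ad-GFP and at 5.44, 6.14 and 5.82 with Ad-nuclear CREBH, and fell by 2.81 on the log2 scale (adjusted p = 1.3e-04). Within arrays the difference of Psmb10 and Psmb7 was -2.93 between the groups, that of Psmb8 and Psmb9 -1.63 and that of Psmb10 and Psmb9 -2.61, each with exact permutation p = 0.1, adjusted 0.117, while that of Psmb9 and Psmb6 was -0.28 (exact permutation p = 0.3, adjusted 0.3).

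Immune cells also express PA28 and the immunoproteasome, so their markers were read on the same arrays. Of 10 macrophage markers, Cd68, Lyz2 and Cd5l fell and Csf1r rose, and their summed level was 11.40 to 11.86 on the log2 scale with Ad-GFP and 10.28 to 11.37 with Ad-nuclear CREBH. Cd68, which makes up most of that sum, was at 11.70, 11.52 and 11.24 with Ad-GFP and at 11.16, 9.99 and 9.90 with Ad-nuclear CREBH. The median level of the 10 markers on an array went the other way, from 4.82 to 5.04 with Ad-GFP and from 5.05 to 5.40 with Ad-nuclear CREBH, and 6 of the 10 had a positive log2 fold change (list median 0.15). Adgre1 was at 4.90 and 5.05 and Clec4f at 3.67 and 3.93, below the median level of all genes, 5.24. By limma none of 4 measured lymphocyte markers passed, nor did any at an unadjusted p under 0.05, and their summed level was 5.12 to 5.42 with Ad-GFP and 5.22 to 5.42 with Ad-nuclear CREBH. The part of such cells in the falls of Psme1, Psme2, Psmb8 and Psmb10 was not tested.

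The promoter of Psmb5 is shown because the same letters match both the cAMP response element core (TGACGT, the site type of the CREB family) and the core of the antioxidant response element (TGACNNNGC, bound by NFE2L1, which drives proteasome genes). The 60 bases run from 80 to 21 bases before the start (RefSeq, GRCm38.p6, chr14:54618016-54618075, minus strand), with the overlapping match in capitals.
Psmb5: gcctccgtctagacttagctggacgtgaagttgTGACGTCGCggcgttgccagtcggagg
Both strands were searched, and TGACGT was found in 4 of 38 proteasome genes (Psma1, Psma5, Psmb5 and Psmd8), 10.5% against 10.3% of all tested genes. TGACNNNGC was found in 6 (Psmb5, Psmb6, Psmc6, Psmd9, Psmd12 and Psme4), 15.8% against 15.4%. Among genes above the median level the shares were 14.0% and 17.3%.

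Among the 30 subunits of the 26S proteasome in the set, which leaves out the lid subunit gene Sem1 because of its name, 3 rose and 7 fell, and the median log2 fold change was -0.054. The shares, 10% risen and 23.3% fallen, stand beside 19.2% and 18.2% of all genes and 29.6% and 30.3% of those above the median level. Only Psma6 exceeded a 2-fold change in the test of all genes, and the 20 subunits that did not pass had 95% intervals lying between -0.77 and 0.59. The median size of a log2 fold change, up or down, was 0.20 in these 30 genes, 0.29 in all genes and 0.64 in genes above the median level.

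In the alpha ring, which gates entry to the core, Psma1 and Psma6 fell and Psma7 rose. Psma6 was at 10.06, 9.94 and 9.89 with Ad-GFP and at 8.97, 8.85 and 8.96 with Ad-nuclear CREBH, a 2.05-fold fall (log2 fold change -1.04, SE 0.10, adjusted p = 1.4e-04). Psma1 was at 10.25, 10.30 and 10.28 with Ad-GFP and at 9.63, 9.88 and 9.81 with Ad-nuclear CREBH (-0.50, adjusted p = 0.00498). Psma7 was at 10.45, 10.15 and 10.20 with Ad-GFP and at 11.06, 10.82 and 10.70 with Ad-nuclear CREBH, and rose 1.51-fold (0.59, SE 0.13, adjusted p = 0.00688). The groups did not overlap for any of these 3 genes, and the subunits occupy the same ring. Psma2, Psma3 and Psma5 had log2 fold changes of -0.27, -0.18 and -0.21 and did not pass, with adjusted p of 0.139 to 0.268. In the beta ring, the structural subunit Psmb3 was at 9.63, 9.24 and 9.16 with Ad-GFP and at 8.59, 8.77 and 8.63 with Ad-nuclear CREBH and fell (-0.68, SE 0.15, adjusted p = 0.00759), while Psmb1, Psmb2 and Psmb4 lay between -0.12 and 0.059 and did not pass.

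In the base of the 19S particle, the ATPase gene Psmc5 was at 8.52, 8.71 and 8.56 with Ad-GFP and at 7.89, 8.05 and 8.03 with Ad-nuclear CREBH, a 1.52-fold fall (log2 fold change -0.61, SE 0.12, adjusted p = 0.00508). The other 5 ATPase genes did not pass. Of these Psmc6 was at -0.33 (adjusted p = 0.0775), passing as fallen in 3 of 17 alternatives, and Psmc1 to Psmc4 lay between -0.20 and 0.11. Psmd2 and Psmd1 encode the large scaffold subunits of the base, and both fell. Psmd2 was at 10.50, 10.55 and 10.51 with Ad-GFP and at 9.92, 10.11 and 10.01 with Ad-nuclear CREBH (-0.51, SE 0.091, adjusted p = 0.00292). Psmd1 was at 10.88, 10.85 and 10.88 with Ad-GFP and at 10.24, 10.53 and 10.59 with Ad-nuclear CREBH (-0.41, SE 0.11, adjusted p = 0.0181). The call of Psmd1 was lost without Ad-GFP replicate 2 or 3 and with each array centred on its median, with log2 fold changes of -0.48 to -0.30 over the arrays left out and adjusted p up to 0.0921 over all alternatives. The ubiquitin receptor gene Psmd4 was at 0.27 (adjusted p = 0.183). It passed as risen in 3 of 17 alternatives, namely array weights, both arrays numbered 1 left out and Ad-GFP replicate 1 left out, the last at 0.40.

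In the lid 2 of 8 genes rose and 0 fell by limma, with 1, Psmd6, lower at an unadjusted p under 0.05. The 25% risen stands beside 19.2% of all genes and 29.6% of those above the median level, of which 18.2% and 30.3% fell. Psmd14, the deubiquitinase that removes ubiquitin chains as substrates enter, was at 10.59, 10.26 and 10.41 with Ad-GFP and at 10.96, 10.96 and 10.89 with Ad-nuclear CREBH, a 1.43-fold rise (log2 fold change 0.52, SE 0.10, adjusted p = 0.00481). Psmd3, a scaffold subunit, was at 8.72, 8.99 and 8.99 with Ad-GFP and at 9.40, 9.67 and 9.67 with Ad-nuclear CREBH, a 1.60-fold rise (0.68, SE 0.13, adjusted p = 0.00423). In both genes every Ad-nuclear CREBH dish lay above every Ad-GFP dish. Psmd6 was at -0.43 (adjusted p = 0.0522), and Psmd7, Psmd8, Psmd11, Psmd12 and Psmd13 lay between -0.061 and 0.19. Psmd6 passed as fallen in 4 of 17 alternatives, namely array weights, quantile normalization, dim genes left out and both arrays numbered 1 left out.

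Some subunits have several features on the array, which target related transcripts and are not independent measurements. Both features of Psmd2 fell, at -0.42 and -0.51, and both of Psmb3, each at -0.68. The 3 features of Psma3 were at -0.20, -0.20 and -0.18, and those of Psma5 at -0.33 and -0.21, of Psmc1 at 0.068 and 0.11 and of Psmb1 at -0.037 and -0.046. None of the latter 9 passed. No gene with several features had features of opposite sign.

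Ad-GFP replicate 1 stood apart for the 26S subunits. It was the highest of the Ad-GFP arrays for 20 of 30 subunits, 66.7%, against 34.9% of all genes. The median deviation of the 30 subunits from their means over the 6 arrays was 0.11 on this array, between 0.0035 and 0.015 on the other Ad-GFP arrays, and between -0.078 and -3e-04 on the Ad-nuclear CREBH arrays. The part of this array in the falls of single subunits was not tested beyond leaving it out. Without it Psma6, Psmb5, Psmc5 and Psmd2 kept their calls, and so did Psma1, Psmb3 and Psmd1.

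**Figure D4:**
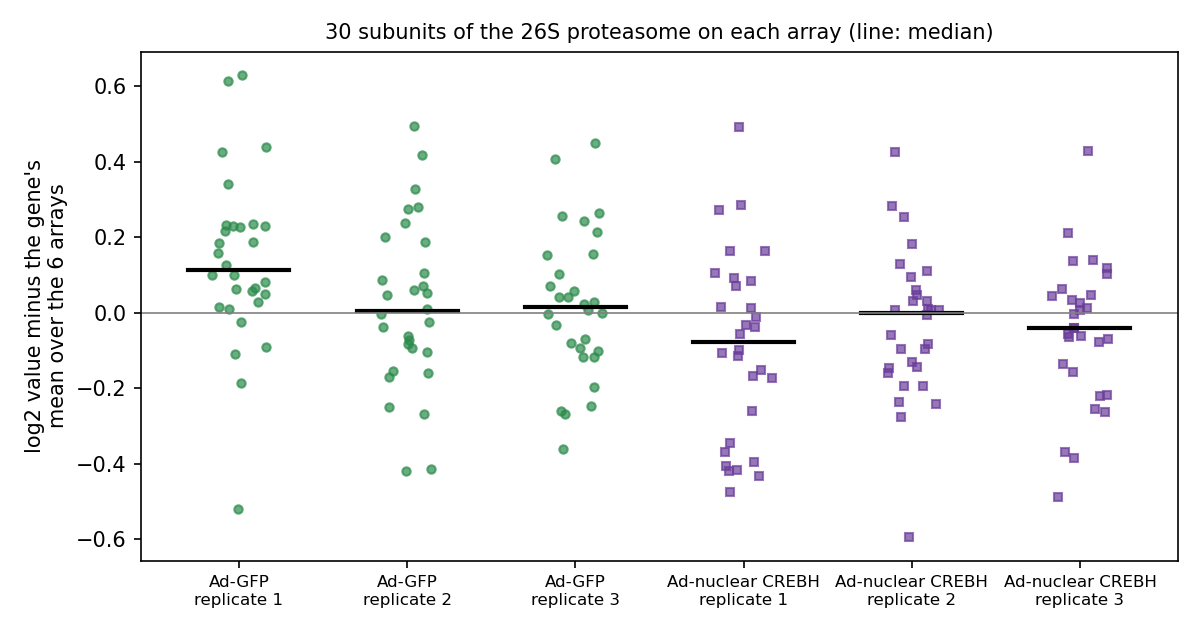
Log2 value of each of 30 subunits of the 26S proteasome minus its mean over the 6 arrays (y axis), by array; each point is 1 gene, green circles for Ad-GFP and purple squares for Ad-nuclear CREBH, and black lines are medians. The median is highest on Ad-GFP replicate 1, at 0.11, and lowest on Ad-nuclear CREBH replicate 1, at -0.078.

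Promoters of the proteasome genes shared the letters CGGAAG, which ETS factors bind. They were found on either strand in 23 of 38 genes with a window, 60.5%, against 24.9% of all tested genes and 36.5% of those above the median level. Among 26S subunits the share was 16 of 24, 66.7%. The list of motifs searched was chosen with the results known, and no test was made of these shares. Stretches around the match are shown for genes that rose (Psme3 and Psmd14), fell (Psmd2) and did not pass (Psmc1), in capitals on the strand of the gene, where CTTCCG is the match read on the opposite strand (all RefSeq, GRCm38.p6, plus strand).
Psme3, chr11:101316083-101316142: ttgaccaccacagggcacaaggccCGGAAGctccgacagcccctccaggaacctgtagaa
Psmd14, chr2:61711554-61711613: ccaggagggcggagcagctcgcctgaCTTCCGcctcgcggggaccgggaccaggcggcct
Psmd2, chr16:20651592-20651651: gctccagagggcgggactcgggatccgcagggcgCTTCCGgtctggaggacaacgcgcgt
Psmc1, chr12:100110092-100110181: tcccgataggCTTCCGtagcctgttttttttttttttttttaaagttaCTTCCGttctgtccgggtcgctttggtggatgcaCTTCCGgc
The match thus occurred in genes of every direction of change, including 3 times before the start of Psmc1, whose expression was at 9.46 and 9.57 (adjusted p = 0.454). The CCAAT box was found in 39.5% of the proteasome genes with a window, against 41.9% of all tested genes.

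Of the 7 chaperones that build the proteasome, Psmd5, Psmg2 and Psmg4 fell and none rose, also not at an unadjusted p under 0.05 in limma. Among all genes 18.2% fell and 19.2% rose, and among those above the median level 30.3% fell and 29.6% rose. Psmd5, which holds base ATPases until they are joined with the core, was at 9.76, 10.02 and 10.01 with Ad-GFP and at 8.01, 8.14 and 8.18 with Ad-nuclear CREBH, a 3.54-fold fall (log2 fold change -1.82, SE 0.12, adjusted p = 2.8e-05). With each array left out in turn it lay between -1.91 and -1.77. The other base chaperones did not pass: Psmd9 was at -0.36 (adjusted p = 0.0768) and Psmd10, which encodes gankyrin, at -0.056 with a 95% interval of -0.63 to 0.51. Psmd9 passed as fallen in 4 of 17 alternatives. Psmd10 was at 8.49, 9.20 and 9.28 with Ad-GFP and 8.54, 9.15 and 9.11 with Ad-nuclear CREBH, and both low values were those of replicate 1.

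The chaperones of the alpha ring work in pairs, Psmg1 with Psmg2 and Psmg3 with Psmg4. Psmg4 was at 6.79, 6.95 and 6.73 with Ad-GFP and at 6.28, 5.62 and 5.62 with Ad-nuclear CREBH, a 1.98-fold fall (log2 fold change -0.99, SE 0.21, adjusted p = 0.00645). Psmg2 was at 8.12, 8.18 and 8.11 with Ad-GFP and at 7.71, 7.36 and 7.36 with Ad-nuclear CREBH (-0.66, SE 0.14, adjusted p = 0.00727). In both, Ad-nuclear CREBH replicate 1 lay closest to the control. Of the partners, Psmg1 was at 0.18 (adjusted p = 0.449) and Psmg3 at -0.27 (adjusted p = 0.165). Genes of other tissues were dim. Psma8, of the testis proteasome, was at 4.15 and 3.63 and fell (adjusted p = 0.0427), a call lost in 6 of 16 alternatives run for it, and Psmb11, of the thymus proteasome, was at 3.44 and 3.30 (adjusted p = 0.514). Of the genes that are not subunits, Psmc3ip fell (-0.67, adjusted p = 0.022), a call lost in 4 alternatives, and Psme3ip1 was at 6.43 in both groups (adjusted p = 0.996).

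Of 30 other genes of the pathway, listed with earlier results known, 20 were measured, and 10 were not analysed here, among them Adrm1 and Usp14. Of the 20, 3 rose and 6 fell, 15% and 30%, against 19.2% and 18.2% of all genes and 29.6% and 30.3% of those above the median level. Zfand5, which binds and stimulates the proteasome, fell from 9.99 to 8.96 (log2 fold change -1.03, SE 0.14, adjusted p = 6.3e-04). Ngly1, the glycanase needed to activate NFE2L1, was at -0.72 (adjusted p = 0.00779), and Ublcp1, a proteasome phosphatase, at -0.72 (adjusted p = 0.0152). The shuttle factor Ubqln4 was at -0.64 (adjusted p = 0.0075), the ubiquitin ligase Ube3c at -0.62 (adjusted p = 0.00515) and Vcp, the segregase that extracts substrates, at -0.55 (adjusted p = 0.00121), and these also fell. Uba6, which activates ubiquitin, rose by 0.69 (adjusted p = 0.00286), the deubiquitinase Uchl5 by 0.45 (adjusted p = 0.0204) and the shuttle factor Ubqln1 by 0.42 (adjusted p = 0.0477). The risen count was 1 without Ad-GFP replicate 2 or 3 or Ad-nuclear CREBH replicate 2, and then held only Uba6. The call of Ubqln1 was lost in 9 of 17 alternatives, with either other variance prior, the replicate block, quantile normalization and cyclic loess and without Ad-GFP replicate 2 or 3 or Ad-nuclear CREBH replicate 2 or 3, and that of Uchl5 in 4. Ublcp1 lost its call without Ad-GFP replicate 2 or Ad-nuclear CREBH replicate 2 or 3. Nfe2l1, the transcription factor of proteasome genes, was at 8.73 and 8.74 (log2 fold change 0.0097, adjusted p = 0.98), the core maturation factor Pomp at 9.98 and 10.01 (adjusted p = 0.874), the lid subunit Sem1 at 9.38 and 9.21 (adjusted p = 0.412) and Akirin2, which brings proteasomes into the nucleus, at 7.48 and 7.45 (adjusted p = 0.897).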

How the data were processed

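The authors deposited log2 expression values of 6 Affymetrix Mouse Gene 1.1 ST arrays made with RMA, which corrects background, normalizes between arrays and summarizes probes; the sources used here do not give its version. Depth does not apply, and RMA flags no background, so dim genes understate fold changes. Symbols came from the platform annotation: 21218 features carried 1 symbol, 1881 several and 12457 none. Each gene was read from its brightest feature, and other features are described where they exist. In R 4.3.3, limma 3.58.1 was run on all 18820 genes (lmFit, then eBayes with an intensity trend; 4 residual and 3.97 prior degrees of freedom), tested on simulated data, at a Benjamini-Hochberg adjusted p under 0.05. Adjusted p-values are from limma. Members, lists and motifs were chosen with earlier results of these data known. Named with values are, per role, the 3 largest rises and falls, the 2 brightest genes that did not pass, and the catalytic, PA28 and control genes. Alternatives covered the variance prior, weights, replicate number as a block, normalization, features, dim genes, the methods' criteria and each array left out. Sequences came from RefSeq tables (GRCm38.p6). Figures used matplotlib 3.10.9.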

Additional observations from a re-analysis of the deposited data

How the results depend on the processing

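Gene by gene, 17 alternatives were counted, without the criteria of the methods. Of 19 proteasome genes called, 15 kept direction and call in all of them, and Psma8, Psmc3ip, Psmd1 and Psme4 lost the call in some. Of 27 not called, 10 passed in at least 1, and no called gene changed sign. The 5 risen and 14 fallen became 9 and 17 with array weights and 0 and 4 by the criteria of the methods, which called 924 and 584 of all genes instead of 3615 and 3427. With array weights 24.6% of all genes rose and 24.4% fell, against 19.2% and 18.2% in the main fit. Both arrays numbered 1 left out, chosen after seeing the data, gave 10 risen, with 23.3% of all genes risen. Over single arrays left out, 4 to 8 rose and 11 to 14 fell, beside 15.3% to 20% risen and 14% to 21.5% fallen among all genes. Of the other pathway genes, 1 rose after quantile normalization, 1 to 3 rose with single arrays left out, and by the methods' criteria 0 rose and 1 fell. The median log2 fold change of the proteasome genes was 0.013 with arrays centred on their medians, which shifts all genes, and elsewhere between -0.19 and -0.087. A replicate block gave 5 risen and 13 fallen, with 19.7% of all genes risen and 19.7% fallen. Same-numbered arrays correlated in their deviations at 0.18, 0.073 and 0.14. Ad-GFP replicates 1 and 3 correlated best with their own number, and Ad-GFP replicate 2 with Ad-nuclear CREBH replicate 3 (0.080). Arrays numbered 1 correlated with the differently numbered arrays of the other group at -0.17 to -0.10. Deviations were taken from the mean of each group and cancel out within it. Negative values here are therefore forced on balance by the positive value between the arrays numbered 1, and are not separate information on pairing. The numbers were not taken as pairs in the main fit, and whether they mark a shared origin was not tested. With dim genes left out, Psma8 and Psmb11 were not tested. The cause of these differences was not tested.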
